A study of Arabidopsis thaliana with 8 samples.

Results

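The 43 genes described here encode proteins of the cytosolic ribosome of Arabidopsis thaliana. Of these, 23 belong to the large subunit, 3 to its acidic stalk and 17 to the small subunit. They were picked by locus from a list that leaves out the RPL18 genes, since RPL18 carries the purification tag in this study. All 43 were among the 32833 loci counted, and all 43 passed the filter on low counts that kept 21202 genes.

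The series profiled floral stems of accession Col-0 by mRNA sequencing, from plants grown at 22 °C under days of 16 h. Translating ribosome affinity purification (TRAP) used a FLAG-tagged RPL18 under the promoter of MSH1, a gene for an organelle-targeted homologue of a bacterial mismatch repair protein. The 4 groups had 2 libraries each, which the labels call biological replicates. They were msh1 TRAP (msh1 plants, RNA recovered with the tagged ribosomes), msh1 Total (msh1 plants, RNA of the whole stem sample), WT TRAP (wild type plants, RNA recovered with the tagged ribosomes) and WT Total (wild type plants, RNA of the whole stem sample). The labels and design text name no msh1 allele and no number of tagged lines or plants per sample, and they do not say whether the Total plants carried the tag. A TRAP library therefore samples ribosomes of cells in which the MSH1 promoter is active, and a Total library samples every cell of the stem. In such bulk samples, fewer cells of a type and less RNA per cell cannot be told apart. P-values measure the spread between 2 libraries a group, pooled over the groups.

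The small subunit of the cytosolic ribosome reads the mRNA, and the large subunit joins amino acids and passes the chain out through its exit tunnel. The acidic P proteins form a flexible stalk on the large subunit that recruits elongation factors. In plants each ribosomal protein is encoded by a small family of nuclear genes whose transcripts are short and abundant, and they are known to be most active in growing tissue such as meristems and young organs. Many of their promoters carry a telo box and site II elements, short motifs known for expression in dividing cells.

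Promoters of 5 genes are shown with the motifs in capitals: both genes of the L4 family, which had the largest log2 fold changes between TRAP and Total, both genes of the RPS18 pair, whose relative levels moved most, and AT4G25890, a stalk gene with the highest log2 fold change in msh1 TRAP against WT TRAP. Each runs 5′ to 3′ from 250 bases before the annotated start of the gene to 30 bases after it. Bases and coordinates are from the RefSeq TAIR10.1 assembly. Capitals mark the telo box (AAACCCTA) and site II (GGCCCA), each on either strand. Only these exact letters were searched, so other forms of either element are neither marked nor counted, here and below.
AT3G09630 chr3:2953443-2953722, plus strand: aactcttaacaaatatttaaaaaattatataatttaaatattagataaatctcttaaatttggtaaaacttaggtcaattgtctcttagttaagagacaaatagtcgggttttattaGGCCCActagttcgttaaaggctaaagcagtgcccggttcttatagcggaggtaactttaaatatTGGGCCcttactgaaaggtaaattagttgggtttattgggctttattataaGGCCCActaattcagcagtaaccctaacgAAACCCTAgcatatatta
AT5G02870 chr5:657425-657704, plus strand: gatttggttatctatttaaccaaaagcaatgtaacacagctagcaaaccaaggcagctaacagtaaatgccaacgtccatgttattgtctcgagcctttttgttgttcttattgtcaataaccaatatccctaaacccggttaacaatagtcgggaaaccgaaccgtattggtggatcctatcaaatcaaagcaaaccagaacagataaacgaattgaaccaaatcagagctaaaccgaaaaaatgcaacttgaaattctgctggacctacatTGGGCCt
PFL (AT1G22780) chr1:8067614-8067893, plus strand: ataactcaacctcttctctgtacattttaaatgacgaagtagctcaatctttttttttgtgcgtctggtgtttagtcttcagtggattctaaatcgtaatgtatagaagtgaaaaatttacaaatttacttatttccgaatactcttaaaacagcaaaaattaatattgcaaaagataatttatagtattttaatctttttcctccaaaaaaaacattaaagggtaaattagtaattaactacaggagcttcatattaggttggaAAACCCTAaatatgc
RPS18C (AT4G09800) chr4:6173462-6173741, plus strand: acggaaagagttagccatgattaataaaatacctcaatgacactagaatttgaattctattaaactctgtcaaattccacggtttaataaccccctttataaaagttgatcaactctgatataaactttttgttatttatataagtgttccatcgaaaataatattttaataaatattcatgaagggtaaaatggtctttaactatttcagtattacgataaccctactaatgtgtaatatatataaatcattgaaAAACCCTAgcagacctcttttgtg
AT4G25890 chr4:13160536-13160815, minus strand: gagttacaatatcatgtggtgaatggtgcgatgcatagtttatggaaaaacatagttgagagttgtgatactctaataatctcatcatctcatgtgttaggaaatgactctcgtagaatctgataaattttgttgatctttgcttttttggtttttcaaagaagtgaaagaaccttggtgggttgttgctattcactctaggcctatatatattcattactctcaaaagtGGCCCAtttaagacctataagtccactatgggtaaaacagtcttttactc
AT3G09630 held 1 telo box and 3 site II elements in the window of 300 bases searched, from 250 before the start to 50 after it. Its partner AT5G02870 held no telo box and 1 site II element. PFL and RPS18C held 1 telo box each just after the start and no site II element. AT4G25890 held 1 site II element and no telo box.

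Over all 43 genes the telo box occurred in 23 promoters (53.5%), against 6.2% of 27443 promoters of all genes. Site II occurred in 27 (62.8%), against 15.5% of all promoters. At least 2 of them stood in 12 of the 43 promoters, and in 6.01% of all promoters. Both motifs stood together in 13 of the 43, against 1.63% of all promoters. Neither run of letters was found in 6 of the 43, and the share of all promoters with neither is not given here. The sequence TATAAA was about as frequent in the 43 promoters as elsewhere, at 53.5% against 52.1%. Of 25 telo boxes, 17 began after the gene start and 8 before it, whereas 35 of 44 site II matches lay before it. A match is a run of letters, and no binding was measured.

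The libraries held 7568728 to 13611280 counts assigned to genes. Levels are given in CPM, which is counts scaled to the TMM-normalised size of each library. A floor of 3 counts, which covers counting error only, equals 0.207 CPM in the deepest library and 0.385 CPM in the shallowest. The MSH1 transcript itself was higher in the msh1 libraries than in the WT libraries, at 36.3 and 22.5 CPM in msh1 TRAP, 27.9 and 30.8 CPM in msh1 Total, 12.3 and 14.0 CPM in WT TRAP, and 9.27 and 9.61 CPM in WT Total. With the allele not given, this level does not test the genotype, and groups are named as the libraries are labelled. RPL18 (AT3G05590), the tag's gene family, stood at 849 and 1862 CPM in msh1 TRAP and between 269 and 344 CPM in the 6 other libraries. The 8 marker genes of stem fibres and xylem were detected in every library. So were the 7 seed storage and 6 floral organ markers.

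The 43 genes were abundant in every group. Their mean level over the 8 libraries ran from 11.5 to 952 CPM with a median of 218 CPM, and the median of all genes tested was 15.0 CPM. Per kilobase of transcript the mean levels ran from 13.5 to 548 CPM per kb, with a median of 241. RP1, the annotated name of an RPL3 gene whose protein sits near the peptidyl transferase centre, was highest at 548 CPM per kb. AT5G02870 followed at 514 CPM per kb. The lowest were RPL16A at 13.5, AT4G30800 at 14.4, RPL10B at 18.2 and AT2G45710 at 19.7 CPM per kb.

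Summed, the 43 genes held 1.24 and 1.53% of gene counts in the msh1 TRAP libraries, 1.10 and 1.10% in msh1 Total, 1.24 and 1.38% in WT TRAP, and 0.904 and 0.917% in WT Total. The group means were 1.38 ± 0.208% in msh1 TRAP, 1.10 ± 0.00199% in msh1 Total, 1.31 ± 0.0955% in WT TRAP and 0.910 ± 0.00977% in WT Total (SD, n = 2 each). WT Total was the lowest group, and both libraries of every other group lay above it. The msh1 TRAP and WT TRAP libraries overlapped. An exact permutation test of 2 libraries against 2 cannot reach 0.05, so none was run on these sums.

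Counts of small-subunit genes stood to those of large-subunit genes as 0.565 and 0.533 in msh1 TRAP, as 0.600 and 0.589 in msh1 Total, as 0.404 and 0.340 in WT TRAP, and as 0.595 and 0.592 in WT Total. Both WT TRAP libraries lay below the 6 other libraries, and the msh1 Total and WT Total libraries overlapped. Large-subunit genes took 0.735 and 0.933% of counts in msh1 TRAP and 0.830 and 0.975% in WT TRAP. Small-subunit genes took 0.415 and 0.497% in msh1 TRAP and 0.336 and 0.332% in WT TRAP. The 6 large-subunit genes with the highest log2 fold change in WT TRAP against WT Total (both L4 genes, EMB2296, RP1, RPL5B and ATL5), chosen after their values were seen, summed to 5221 and 7421 CPM in WT TRAP, against 2463 and 2421 CPM in WT Total. The other 17 large-subunit genes summed to 2835 and 3267 CPM in WT TRAP, against 2673 and 2585 CPM in WT Total. In msh1 TRAP the 6 summed to 3461 and 5116 CPM and the other 17 to 4007 and 5553 CPM.

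**Figure D1:**
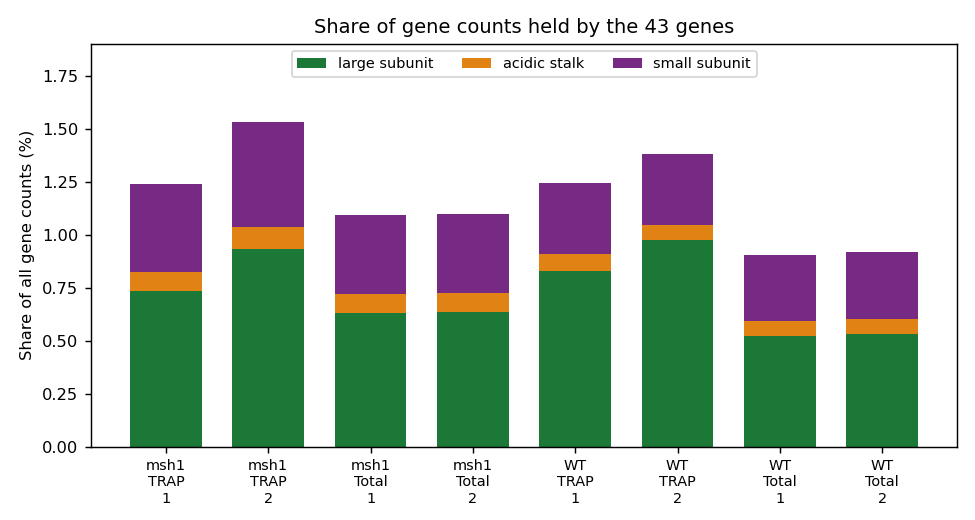
Share of all gene counts, in percent, held by large-subunit, acidic stalk and small-subunit genes, stacked, in each of the 8 libraries. The WT Total bars reach 0.904 and 0.917%, and the highest bar, of the second msh1 TRAP library, reaches 1.53%.

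Within msh1 plants, which asks what the tagged ribosomes held relative to the whole stem, 23 of the 43 genes were higher in TRAP than in Total and none was lower (edgeR's quasi-likelihood test, Benjamini-Hochberg adjusted p under 0.05). Over all genes tested, 26.2% passed in this comparison, 14.1% as higher and 12.1% as lower. Among genes whose transcripts were as long as those of the 43, from 672 to 1738 nucleotides, 21.9% were higher and 5.83% lower. Such genes, here and below, share that range only and are not matched to the 43 within it. Of all genes tested, 2165 had 701 to 1000 nucleotides and 5232 had 1301 to 1800, against 19 and 7 of the 43. None of the 43 was lower at an unadjusted p under 0.05 either, nor by DESeq2. The median log2 fold change was 0.57, and that of all genes −0.03. The 23 comprised 14 of 23 large-subunit genes, 1 of 3 stalk genes and 8 of 17 small-subunit genes. By library, 31 of the 43 had both msh1 TRAP values above both msh1 Total values, as did 29.9% of all genes, and 12 overlapped.

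The L4 family led. Its protein lines the exit tunnel of the large subunit. AT3G09630 stood at 667 and 1094 CPM in msh1 TRAP, against 331 and 347 CPM in msh1 Total. AT5G02870 stood at 848 and 1203 CPM in msh1 TRAP, against 437 and 463 CPM in msh1 Total. Both TRAP libraries lay well above both Total libraries for either gene, and the second TRAP library was the higher. The log2 fold changes were 1.38 ± 0.24 for AT3G09630 (edgeR adjusted p = 0.00192) and 1.19 ± 0.21 for AT5G02870 (edgeR adjusted p = 0.00219).

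RPS6 and EMB3010 encode ribosomal protein S6 of the small subunit, the protein that S6 kinase phosphorylates downstream of TOR. RPS6 stood at 487 and 735 CPM in msh1 TRAP, against 285 and 300.1 CPM in msh1 Total. EMB3010 stood at 593 and 818 CPM in msh1 TRAP, against 350.3 and 352 CPM in msh1 Total. The groups did not overlap for either gene, and the log2 fold changes were 1.06 ± 0.21 and 1.01 ± 0.18 (edgeR adjusted p = 0.0035 and 0.00242).

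AT4G25890, annotated as a 60S acidic ribosomal protein, stood at 83.6 and 124 CPM in msh1 TRAP, against 51.2 and 49.0 CPM in msh1 Total. It rose by 1.05 ± 0.18 on the log2 scale (edgeR adjusted p = 0.00203). The other stalk genes were AT1G01100 at 0.46 ± 0.17 and AT3G09200 at 0.14 ± 0.16, neither of which passed. EMB2296, of the L2 family at the core of the large subunit, was at 460.0 and 889.8 CPM in msh1 TRAP, against 353 and 351 CPM in msh1 Total. Its change was 0.94 ± 0.27 (edgeR adjusted p = 0.0248), and the 2 TRAP libraries were far apart. The lowest value was that of PGY2, an L6 family gene named for a leaf phenotype, at −0.13 ± 0.17 (edgeR adjusted p = 0.615). Since 54.8% of the windows of 100 bases in the PGY2 transcript also occur in AT1G33120, its counts are uncertain.

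Leaving out libraries moved the count of 23. It was 9 without msh1 TRAP replicate 2, 33 without msh1 TRAP replicate 1, 7 without either msh1 Total library, and 11 when only the 4 msh1 libraries were fitted. The number of all genes called moved widely as well, over the range given under the dependence on processing below. Where a group is left with 1 library, that library is taken to vary as the other groups do. AT3G09630, AT5G02870, AT4G25890, RPS6 and EMB3010 stayed past the threshold under all 18 other settings tried. The second msh1 TRAP library also held the most RPL18 counts (1862 CPM, against 849 CPM in the first), and the part of this in the result was not tested.

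**Figure D2:**
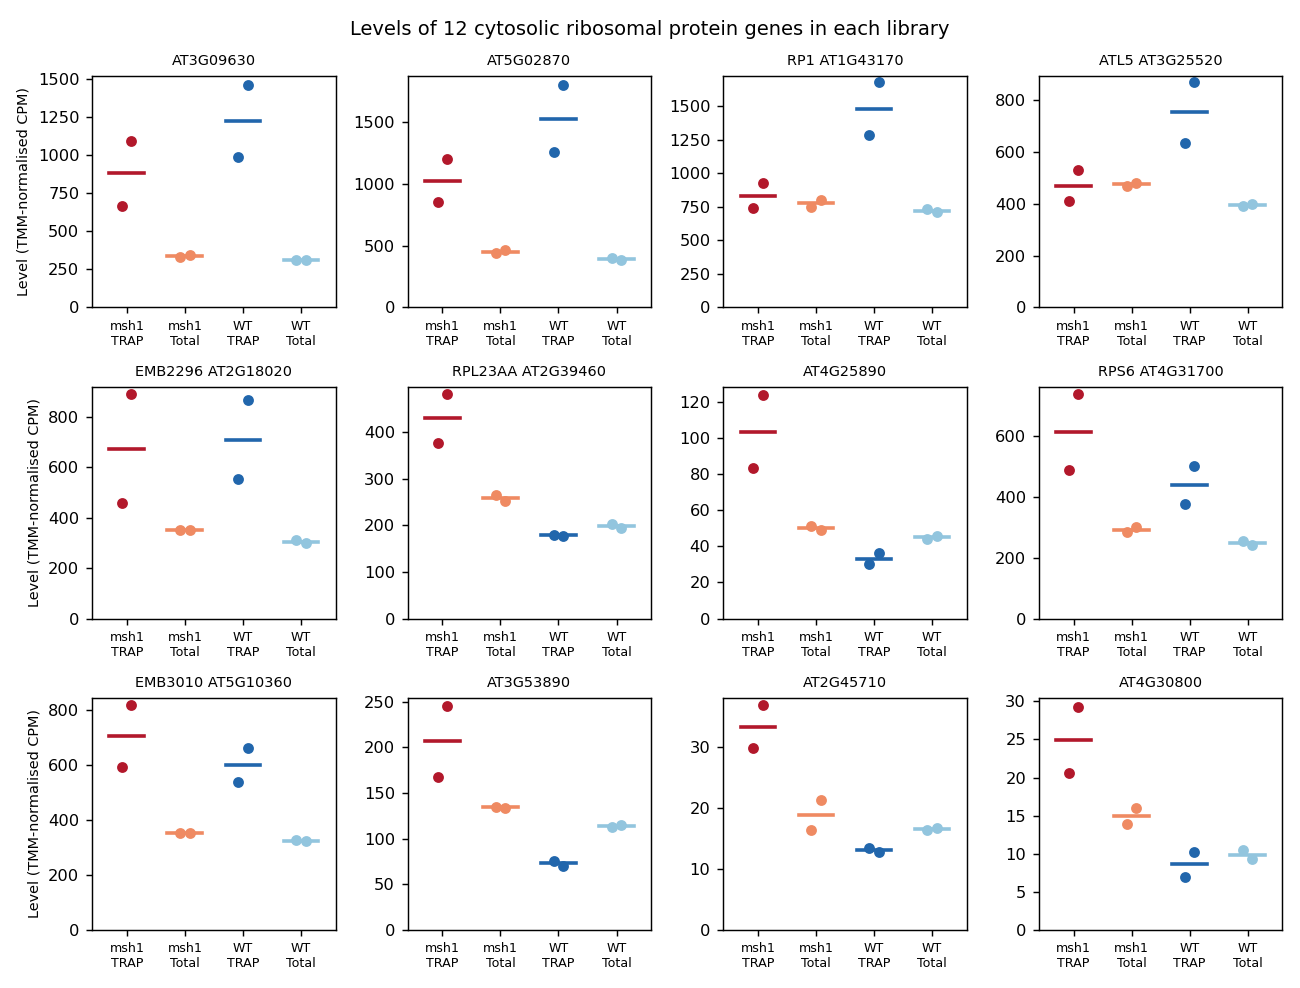
Levels of 12 of the genes in each library, in TMM-normalised CPM on linear axes from 0, with points for libraries and bars for the mean of 2. Both L4 genes (AT3G09630 and AT5G02870) are highest in WT TRAP, while AT4G25890, AT3G53890 and AT2G45710 are highest in msh1 TRAP.

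In WT plants, 9 of the 43 genes were higher in TRAP than in Total and none was lower. Over all genes tested 5.07% passed, 3.41% as higher and 1.67% as lower, and among genes of the same transcript lengths 1.39% were higher and 2.47% lower. At an unadjusted p under 0.05, 4 of the 43 were lower, and DESeq2 called 1 of them lower. The median log2 fold change of the 43 was −0.02, beside −0.06 over all genes, and it was 0.01 with DESeq2 size factors. The 9 genes were 7 of the large subunit and 2 of the small.

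The L4 genes again led. AT3G09630 stood at 985 and 1462 CPM in WT TRAP, against 310.2 and 309 CPM in WT Total, which is 3.95-fold (log2 1.98 ± 0.24, edgeR adjusted p = 7.23e-04). AT5G02870 stood at 1253 and 1801 CPM in WT TRAP, against 402 and 386 CPM in WT Total (log2 1.95 ± 0.22, edgeR adjusted p = 3.32e-04). Their folds were the largest of the 43 genes here.

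EMB2296 followed, at 554 and 867 CPM in WT TRAP, against 311 and 299 CPM in WT Total (log2 1.22 ± 0.27, edgeR adjusted p = 0.0259). RP1 stood at 1285 and 1677 CPM in WT TRAP, against 731 and 711 CPM in WT Total (log2 1.04 ± 0.18, edgeR adjusted p = 0.00739). ATL5 and RPL5B encode ribosomal protein L5, which brings the 5S rRNA into the large subunit. ATL5 was at 635 and 868 CPM in WT TRAP, against 392 and 399.7 CPM in WT Total, and RPL5B at 509 and 746 CPM in WT TRAP, against 316 and 316 CPM in WT Total. Their log2 fold changes were 0.93 ± 0.19 and 0.99 ± 0.21 (edgeR adjusted p = 0.0151 and 0.0182). For each of these genes both WT TRAP libraries lay above both WT Total libraries, and the second TRAP library was the higher.

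The remaining genes past the threshold were EMB3010 at 0.89 ± 0.18, RPS6 at 0.82 ± 0.21 and BBC1, an L13 family gene of the large subunit, at 0.79 ± 0.21. At the other end stood AT3G53890, of the small-subunit protein S21, with 75.8 and 69.9 CPM in WT TRAP, against 113 and 115 CPM in WT Total. Both WT TRAP libraries were lower, but the change of −0.65 ± 0.18 did not pass (edgeR adjusted p = 0.0582). By library, 19 of the 43 genes had both WT TRAP values above both WT Total values (23.6% of all genes did), 18 had both below (32.0% of all genes did) and 6 overlapped.

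This comparison was thin in libraries, and the number of all genes called also moved with the library left out, as given below. Without WT TRAP replicate 2, or without either WT Total library, only AT3G09630 and AT5G02870 passed, and without either msh1 TRAP library, which set part of the pooled spread, 14 did. Of the 23 genes that rose in msh1 and the 9 that rose in WT, 6 passed in both comparisons, namely both L4 genes, EMB2296, RPS6, EMB3010 and BBC1. That is 6 of the 23 and 6 of the 9. RP1, ATL5 and RPL5B were at 0.10 ± 0.18, −0.02 ± 0.19 and 0.10 ± 0.21 in msh1, and passed in WT.

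**Figure D3:**
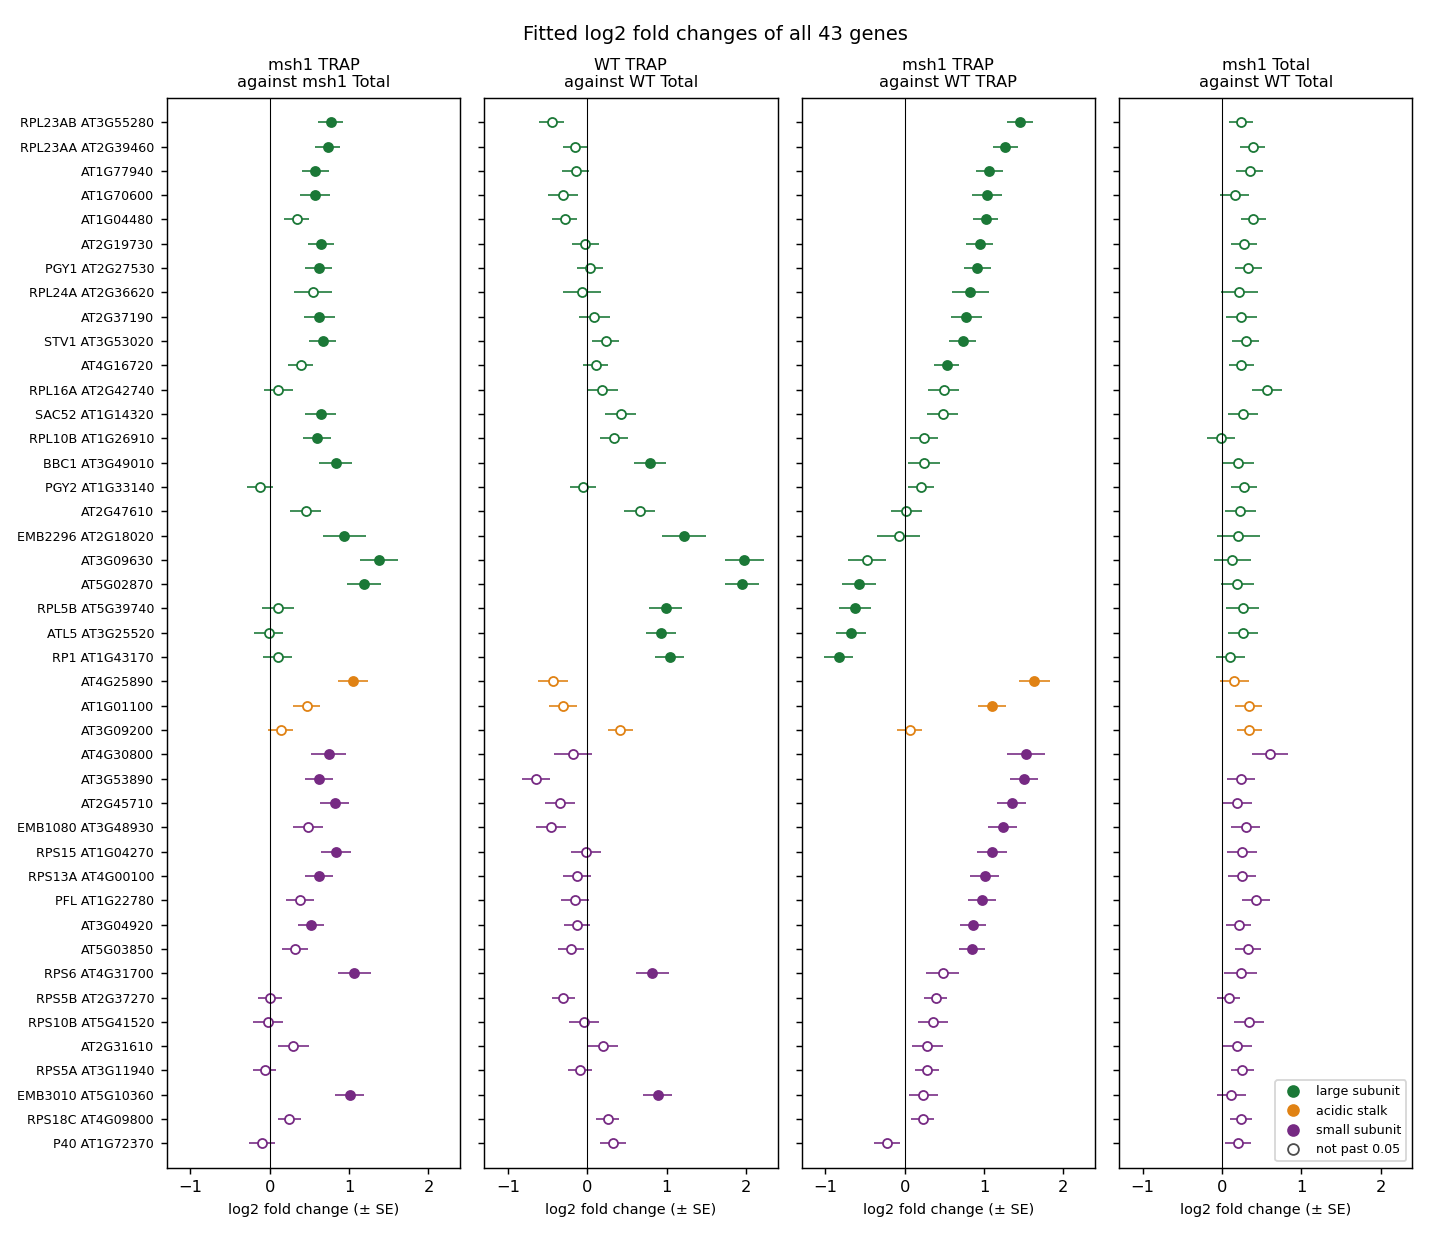
Fitted log2 fold change (horizontal axis, bars ± SE) of each of the 43 genes in the 4 pairwise comparisons, grouped by role and ordered by msh1 TRAP against WT TRAP. Filled points passed at an adjusted p of 0.05, and the values run from −0.83 to 1.98.

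Between the TRAP samples of the genotypes, 22 of the 43 genes were higher in msh1 and 4 were lower. This comparison called many genes altogether: 41.6% of those tested passed, 20.8% in each direction. Among genes of the same transcript lengths 34.0% were higher and 9.18% lower. The share of higher genes among short transcripts was itself high. All genes of 701 to 1000 nucleotides, where 19 of the 43 lay, had a median log2 fold change of 0.66. Those of 1301 to 1800, where 7 lay, had one of 0.12, so the 34.0% is not a share matched to the 43. The median log2 fold change of the 43 was 0.53, and that of all genes −0.02. The higher genes were 11 of 23 large-subunit, 2 of 3 stalk and 9 of 17 small-subunit genes, and all 4 lower genes belonged to the large subunit. Both msh1 TRAP values lay above both WT TRAP values for 28 genes (32.6% of all genes) and below them for 4 (34.8% of all genes).

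AT4G25890 was furthest up, at 83.6 and 124 CPM in msh1 TRAP, against 30.0 and 36.5 CPM in WT TRAP. That is 3.11-fold (log2 1.64 ± 0.19, edgeR adjusted p = 7.13e-05). AT4G30800, listed among the small-subunit genes and annotated as an OB-fold protein, was at 20.6 and 29.3 CPM in msh1 TRAP, against 6.93 and 10.2 CPM in WT TRAP (log2 1.53 ± 0.24, edgeR adjusted p = 3.72e-04). Its more abundant partner EMB1080 was at 267 and 406 CPM in msh1 TRAP, against 141 and 144 CPM in WT TRAP (log2 1.23 ± 0.19, edgeR adjusted p = 3.44e-04). For none of these genes did the groups overlap.

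AT3G53890 was at 168 and 245 CPM in msh1 TRAP, against 75.8 and 69.9 CPM in WT TRAP (log2 1.50 ± 0.18, edgeR adjusted p = 8.49e-05). AT2G45710, a zinc-binding protein of the small subunit, was at 29.8 and 36.9 CPM in msh1 TRAP, against 13.5 and 12.8 CPM in WT TRAP (log2 1.35 ± 0.19, edgeR adjusted p = 1.98e-04). RPL23AA and RPL23AB encode L23a, which sits at the mouth of the exit tunnel. RPL23AA stood at 377 and 481 CPM in msh1 TRAP, against 179.7 and 177 CPM in WT TRAP, and RPL23AB at 117 and 149 CPM in msh1 TRAP, against 50.2 and 47.2 CPM in WT TRAP. Their log2 fold changes were 1.27 ± 0.16 and 1.45 ± 0.16 (edgeR adjusted p = 1.14e-04 and 6.00e-05).

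The 4 genes that fell were among the 6 with the longest coding sequences. RP1 stood at 739 and 924 CPM in msh1 TRAP, against 1285 and 1677 CPM in WT TRAP (log2 −0.83 ± 0.18, edgeR adjusted p = 0.00326). ATL5 stood at 408 and 530.2 CPM in msh1 TRAP, against 635 and 868 CPM in WT TRAP (log2 −0.68 ± 0.19, edgeR adjusted p = 0.0117). These are the genes whose WT TRAP values stood out above WT Total. RPL5B stood at 339 and 475 CPM in msh1 TRAP, against 509 and 746 CPM in WT TRAP (log2 −0.62 ± 0.21, edgeR adjusted p = 0.0285). AT5G02870, whose values in both groups are given above, was at −0.57 ± 0.21 (edgeR adjusted p = 0.0434). AT3G09630, at −0.47 ± 0.24, did not pass (edgeR adjusted p = 0.124). Of the 26 calls, 17 held under all 18 other settings, among them RP1, AT4G25890, AT4G30800, EMB1080, AT3G53890, AT2G45710, RPL23AA and RPL23AB. AT5G02870, ATL5 and RPL5B did not: each lost its call without msh1 TRAP replicate 1 and without WT TRAP replicate 2.

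Between the Total samples the genotypes differed by less. No member passed in edgeR's test, where 3.89% of all genes did, 0.821% as higher and 3.07% as lower (0.961% and 3.69% among genes of the same transcript lengths). At an unadjusted p under 0.05, 5 were higher and none lower, and DESeq2 called none. The values nevertheless lay on one side: 42 of 43 log2 fold changes were above 0 (49.7% over all genes), with a median of 0.24 against −0.00 over all genes. Both msh1 Total libraries lay above both WT Total libraries for 40 genes, which held for 27.9% of all genes. No member had both below, which held for 29.4% of all genes, and the 3 others overlapped. The Total comparison was sensitive to how spread was pooled, since 14 members passed as higher when only the 4 Total libraries were fitted. That setting also called more of all genes, with their number given under the dependence on processing below.

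AT4G30800 had the highest value, 0.60 ± 0.23 (edgeR adjusted p = 0.189), from 13.9 and 15.9 CPM in msh1 Total, against 10.5 and 9.26 CPM in WT Total. RPL16A, of the large subunit, was next at 0.57 ± 0.19 (edgeR adjusted p = 0.125). RPL10B had the lowest, −0.01 ± 0.18, with 14.0 and 14.6 CPM in msh1 Total, against 15.6 and 13.3 CPM in WT Total, and these libraries overlapped. Its partner SAC52, a gene of the late-joining protein L10, was at 0.26 ± 0.19. SAC52 supplied 95.6 to 96.9% of the counts of that pair in every library.

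Markers of other cell types differed between the genotypes as well. The 7 seed markers summed to 52.6 and 37.7 CPM in msh1 TRAP, 107 and 266 CPM in msh1 Total, 832 and 1815 CPM in WT TRAP, and 2322 and 1932 CPM in WT Total, and all 7 fell in msh1 TRAP against WT TRAP and in msh1 Total against WT Total. The 8 fibre and xylem markers summed to 565 and 524 CPM in msh1 TRAP and 654 and 819 CPM in msh1 Total. The sums were 1296 and 1572 CPM in WT TRAP and 1072 and 1106 CPM in WT Total. CESA4, IRX3 and IRX1 made up most of each sum. In WT TRAP against Total 6 of the 8 lay above 0, and XCP1 and XCP2 lay below. XCP2 was at 24.1 and 34.2 CPM in WT TRAP, against 65.5 and 58.1 CPM in WT Total. It was at 29.3 and 37.9 CPM in msh1 TRAP, not below WT TRAP. The 6 cell division markers summed to 96.9 and 122 CPM in msh1 TRAP, 106 and 102 CPM in msh1 Total, 56.1 and 76.6 CPM in WT TRAP, and 94.6 and 78.7 CPM in WT Total, and 2 of them rose in msh1 TRAP against WT TRAP. SYP111, a cytokinesis syntaxin, rose by 1.09 ± 0.20 and the cyclin gene AT1G44110 by 0.62 ± 0.20 in msh1 TRAP against WT TRAP. The 2 pollen markers summed to 51.7 and 21.9 CPM in msh1 TRAP, 47.1 and 55.4 CPM in msh1 Total, 199 and 168 CPM in WT TRAP, and 93.0 and 82.7 CPM in WT Total. The 6 floral organ markers summed to 98.6 to 99.5 CPM in msh1 TRAP, 86.9 to 100.1 CPM in msh1 Total, 115 to 163 CPM in WT TRAP and 136 to 142 CPM in WT Total. The 2 shoot meristem markers summed to 63.9 and 88.8 CPM in msh1 TRAP and to 47.3 to 65.4 CPM in the 6 other libraries. Nearly all of this was STM, at 63.6 and 88.0 CPM in msh1 TRAP. WUS was at 0.382 CPM (the floor of 3 counts) and 0.824 CPM in msh1 TRAP, against 1.40 and 0.947 CPM in msh1 Total. Between the TRAP samples 5 of the 8 fibre and xylem markers and 3 of the 6 floral organ markers were also called lower in msh1. In Total, 2 floral organ markers and none of the fibre and xylem markers were. Of all genes 20.8% were higher and 20.8% lower in msh1 TRAP against WT TRAP, and 3.07% were lower in msh1 Total against WT Total. No marker was at 0 in any library. The part of these cells in the ribosomal protein values was not tested.

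The test of whether the genotype difference itself differed between fractions (the difference in TRAP minus the one in Total, an interaction term) passed for 10 of the 43 genes, 8 positive and 2 negative. Over all genes 15.6% passed, 9.01% as positive and 6.61% as negative, and among genes of the same transcript lengths 15.3% were positive and 1.39% negative. AT4G25890 (1.48 ± 0.26), AT3G53890 (1.27 ± 0.25), RPL23AB (1.22 ± 0.22) and AT2G45710 (1.16 ± 0.26) were the most positive. EMB1080 (0.94 ± 0.26) and RPL23AA (0.88 ± 0.22) came next. AT1G70600, of the large subunit, was at 0.87 ± 0.26 and RPS15, of the head of the small subunit, at 0.85 ± 0.26. ATL5 (−0.94 ± 0.26) and RP1 (−0.94 ± 0.26) were the negative ones. For ATL5 the log2 fold change between the genotypes was −0.68 in TRAP and 0.26 in Total. For RPL23AA it was 1.27 in TRAP and 0.38 in Total. AT3G53890 was at 134 and 134 CPM in msh1 Total, against 113 and 115 CPM in WT Total, and RP1 at 748 and 802 CPM in msh1 Total, against 731 and 711 CPM in WT Total. The number called moved with the library left out, among the 43 and over all genes, with both ranges given below. No single gene kept its call under every setting.

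Transcript length bears on all comparisons that involve TRAP. The 43 transcripts had a median length of 1008 nucleotides, against 1680 over all genes tested. In msh1, genes of 701 to 1000 nucleotides had a median log2 fold change of 0.37 between TRAP and Total, and genes over 3500 nucleotides one of −0.39. In WT the order was the opposite, with −0.24 at 701 to 1000 nucleotides and 0.24 over 3500. In msh1 TRAP against WT TRAP the corresponding medians were 0.66 and −0.74, and in msh1 Total against WT Total they were 0.08 and −0.09. At the lengths of the 43 genes this trend had a median of 0.40 in msh1 TRAP against WT TRAP, beside their own median of 0.53.

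With the trend of log2 CPM on transcript length removed from each library, the median of the 43 was 0.31 in msh1 TRAP against Total and 0.22 in WT TRAP against Total. It was 0.15 in msh1 TRAP against WT TRAP and 0.30 in msh1 Total against WT Total. The medians of all genes under this setting were 0.06 between the TRAP samples and 0.07 in Total. As counted they were −0.02 and −0.00. The removal left part of the trend: between the TRAP samples, all genes of 701 to 1000 nucleotides kept a median of 0.23. Those of 1001 to 1300 nucleotides, where 16 of the 43 lay, kept one of 0.16. The calls became 10 higher in msh1, all among the 23, and 11 higher in WT, which kept the 9 and added AT2G47610 and RPS18C. Between the TRAP samples, 18 were higher and 5 lower, and 22 of the 26 calls were kept. With the trend removed, 13.7% of all genes passed as higher in the msh1 comparison of TRAP with Total, 3.15% in the WT one, and 19.0% as higher and 13.0% as lower between the TRAP samples. Among genes of the same transcript lengths these shares were 15.4%, 2.56%, 22.5% and 12.5%, in that order. No member passed in Total, where 1.63% of all genes were higher (1.94% among genes of the same transcript lengths). The msh1 and WT medians were thus 0.57 and −0.02 as counted, and 0.31 and 0.22 with the trend removed. The median of the interaction was 0.31 as counted and −0.06 with the trend removed, where 3 members passed as positive (5.13% of all genes) and 3 as negative (2.49% of all genes).

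Among the 43 genes themselves, coding length ordered the values more closely than transcript length did where WT TRAP entered the comparison (Spearman's rho 0.83 against 0.65 in WT TRAP against Total). It ran from 195 to 1224 nucleotides with a median of 543. In WT TRAP against Total, 5 of the 6 genes with 901 to 1300 coding nucleotides rose, as did 4 of 13 with 601 to 900 and none of 24 below. Over all genes, 2.11%, 1.55% and at most 0.573% of genes in these ranges were higher. In msh1 TRAP against WT TRAP, all 10 genes under 451 coding nucleotides rose, 10 of 14 with 451 to 600 and 2 of 13 with 601 to 900, and 4 of 6 above 900 fell. Over all genes, 42.9% were higher up to 300 coding nucleotides, 54.1% from 301 to 450, 47.2% from 451 to 600 and 38.4% from 601 to 900, and 12.8% were lower from 901 to 1300. The share of members that rose was thus below that of all genes at 601 to 900.

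Spearman's rho between coding length and log2 fold change over the 43 genes was −0.12 in msh1 TRAP against Total, 0.83 in WT TRAP against Total, −0.85 in msh1 TRAP against WT TRAP and −0.32 in msh1 Total against WT Total. Over the 19900 genes with a coding length the values were −0.44, 0.35, −0.55 and −0.12 in that order. These are descriptions across genes that share libraries and that are not independent replicates. With the trend on coding length removed from each library the values within the 43 were 0.01, 0.78, −0.79 and −0.24 in the same order. Under that setting the negative end of the interaction, ATL5, RPL5B and RP1, passed (1.89% of all genes did as negative) and none of the positive genes did, with AT4G25890 at 0.84.

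**Figure D4:**
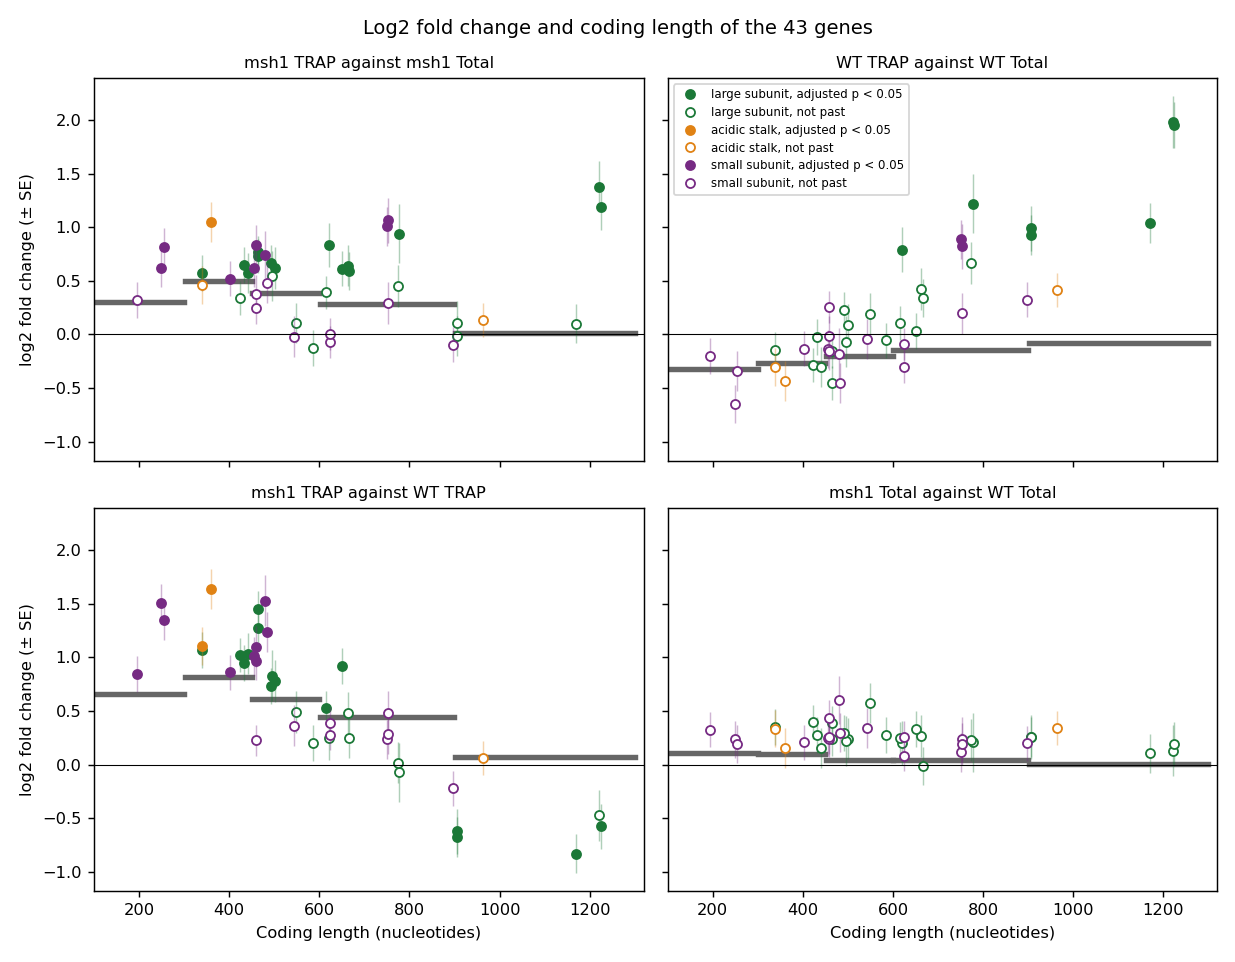
Log2 fold change (± SE) of the 43 genes against their coding length in nucleotides, in 4 comparisons, with grey bars for the median of all genes in each length range. In WT TRAP against WT Total the L4 genes at 1221 and 1224 nucleotides reach 1.98 and 1.95, and in msh1 TRAP against WT TRAP the genes under 451 nucleotides all lie at 0.85 or above.

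The list held 9 pairs of genes for the same protein, with coding sequences 81.6 to 92.7% identical. Reads of 100 bases can tell them apart at such divergence, as the last 90 coding bases of the L4 pair and of the RPS18 pair show, each line 5′ to 3′ from the RefSeq TAIR10.1 assembly with the bases that differ in capitals.
AT3G09630 coding bases 1132 to 1221: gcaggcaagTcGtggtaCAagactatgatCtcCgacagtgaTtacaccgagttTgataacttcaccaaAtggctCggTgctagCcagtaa
AT5G02870 coding bases 1135 to 1224: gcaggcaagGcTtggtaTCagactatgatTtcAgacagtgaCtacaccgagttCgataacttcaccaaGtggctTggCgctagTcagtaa
PFL (AT1G22780) coding bases 370 to 459: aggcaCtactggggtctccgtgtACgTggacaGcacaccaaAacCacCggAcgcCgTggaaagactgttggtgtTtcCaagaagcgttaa
RPS18C (AT4G09800) coding bases 370 to 459: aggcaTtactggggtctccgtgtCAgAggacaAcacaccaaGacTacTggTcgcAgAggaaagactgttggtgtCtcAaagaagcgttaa
The L4 pair differed at 12 of these 90 bases and the RPS18 pair at 13. No window of 100 bases in any of these 4 transcripts recurred elsewhere among annotated transcripts. Windows that recur were found in PGY2 (54.8%), RPL16A (2.41%), RPL5B (0.81%) and AT3G09200 (0.07%).

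The median gap between the log2 fold changes of a pair was 0.12 in msh1 TRAP against Total, 0.21 in WT TRAP against Total, 0.19 in msh1 TRAP against WT TRAP and 0.15 in msh1 Total against WT Total. AT3G09630 supplied 44.0 and 47.6% of the L4 counts in msh1 TRAP, 43.1 and 42.8% in msh1 Total, 44.0 and 44.8% in WT TRAP, and 43.6 and 44.4% in WT Total. A share within a pair does not depend on how libraries are scaled, and for L4 it ranged over 4.80 points.

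The RPS18 pair was the exception, with a range of 14.3 points. PFL, named for the pointed first leaf of its mutant, supplied 35.4 and 41.4% of the pair's counts in msh1 TRAP, 36.8 and 36.2% in msh1 Total, 27.2 and 27.7% in WT TRAP, and 33.7 and 33.3% in WT Total. Both WT TRAP libraries lay below all others. PFL was at 151 and 219 CPM in msh1 TRAP, against 96.0 and 93.0 CPM in WT TRAP (log2 0.97 ± 0.18, edgeR adjusted p = 0.00106). RPS18C was at 275 and 309 CPM in msh1 TRAP, against 257 and 242 CPM in WT TRAP (log2 0.23 ± 0.14, edgeR adjusted p = 0.232). Both genes encode 459 nucleotides, and their transcripts have 778 and 802 nucleotides.

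The other pairs spanned 1.36 to 8.07 points over the 8 libraries. RPL24A supplied 26.8 and 34.8% of the L24 pair in the 2 msh1 TRAP libraries, a gap within 1 group nearly as wide as the range over all libraries, so no difference between groups could be read from it. Its partner STV1, known from short valve mutants and from reinitiation of translation after upstream reading frames, rose by 0.67 ± 0.17 in msh1 TRAP against Total and by 0.73 ± 0.17 in msh1 TRAP against WT TRAP. Both calls were lost with the transcript length trend removed and with the coding length trend removed. Over the settings tried, the lowest STV1 values were 0.31 and 0.20 in these 2 comparisons. RPS5A and RPS5B, whose first member has a promoter widely used to drive expression in dividing cells, passed in no comparison, and in msh1 TRAP against Total they were at −0.07 ± 0.15 and 0.00 ± 0.15. In all, 10 of the 43 genes passed in none of the 4 pairwise comparisons. The share of all genes that passed in none is not given here, so this count is not read as few or many.

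**Figure D5:**
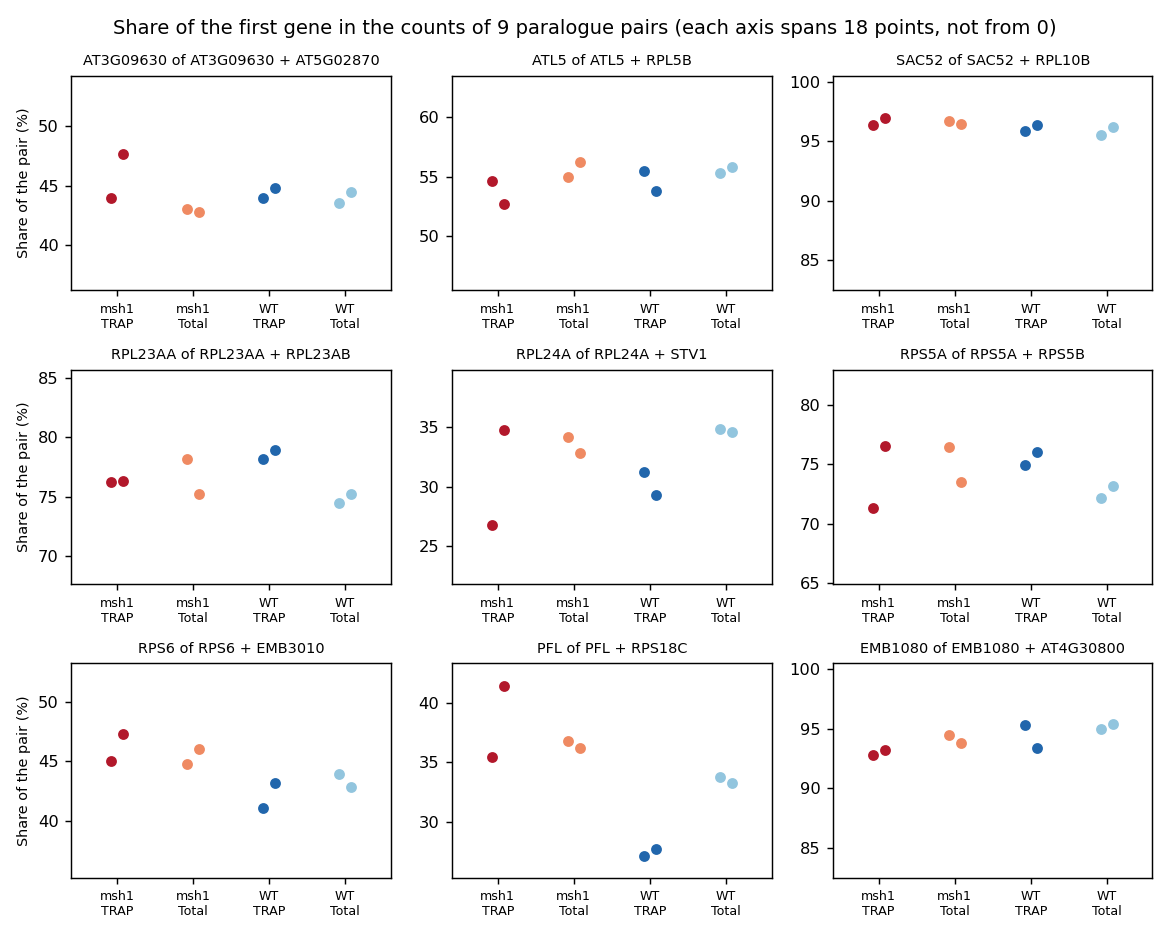
Share of the first-named gene in the summed counts of each of the 9 pairs, in percent, with a point per library. Axes span 18 points and do not start at 0, and PFL stands at 27.2 and 27.7% in WT TRAP, against 33.3 to 41.4% in the 6 other libraries.

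Other genes that act with the ribosome were counted in the same fit. Of 21 elongation and initiation factor genes, 5 rose and none fell in msh1 TRAP against Total, 2 rose and 1 fell in WT TRAP against Total, and 5 rose and 4 fell in msh1 TRAP against WT TRAP. The shares called, 23.8% in msh1 TRAP against Total and 42.9% between the TRAP samples, were near those of all genes, 26.2 and 41.6%. In WT TRAP against Total 14.3% were called, against 5.07% of all genes. The eIF5A genes FBR12 and ELF5A-3, for a factor that helps stalled ribosomes, rose in msh1 TRAP against WT TRAP by 1.70 ± 0.18 and 1.22 ± 0.14, and the cap-binding factor EIF4E by 1.34 ± 0.15. The genes for the gamma chain of EF1B, AT1G09640 and AT1G57720, rose in WT TRAP against Total by 1.34 ± 0.18 and 1.10 ± 0.17. In msh1 TRAP against WT TRAP they were at −0.77 ± 0.17 and −0.74 ± 0.17, and LOS1, the elongation factor 2 gene, was at −0.91 ± 0.19, all 3 past the threshold as lower. LOS1 has a transcript of 3641 nucleotides, and with the length trend removed it was at −0.29 and did not pass (edgeR adjusted p = 0.164). In msh1 Total against WT Total the median of the 21 was −0.00.

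Of 21 ribosome biogenesis genes, 4 rose and 5 fell in msh1 TRAP against Total, 2 rose and none fell in WT TRAP against Total, and 5 rose and 7 fell in msh1 TRAP against WT TRAP. Of all genes 26.2, 5.07 and 41.6% were called in these comparisons. The balance between the TRAP samples turned round with the transcript length trend removed, where 7 rose and 1 fell, and with the coding length trend removed, where 8 rose. The fibrillarin genes FIB1 and FIB2, for the methyltransferase of rRNA, rose in msh1 TRAP against Total by 1.77 ± 0.30 and 1.77 ± 0.20. PUM23 and NAP57, both for rRNA processing, were at −0.76 ± 0.15 and −0.75 ± 0.21 in the same comparison and passed as lower. With the length trend removed PUM23 was at −0.46 and passed, and NAP57 was at −0.58 and did not (edgeR adjusted p = 0.0767). NMD3, for export of the large subunit, and the pescadillo-like AT5G14520 rose in WT TRAP against Total by 0.60 ± 0.14 and 0.58 ± 0.15.

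Of 5 genes of TOR signalling, the kinase pathway that promotes ribosome production, 1 rose and 3 fell in msh1 TRAP against WT TRAP, where 20.8% of all genes were called in each direction. TCP20, a factor known to bind site II elements, rose by 0.73 ± 0.21. PK1, an S6 kinase gene, was at −1.12 ± 0.18, TOR at −1.10 ± 0.19 and RAPTOR1 at −0.79 ± 0.16. TOR and RAPTOR1 have transcripts of 8200 and 5045 nucleotides, and with the length trend removed they were at −0.01 and 0.03, neither past the threshold. The median of the 5 was 0.11 in WT TRAP against Total and −0.22 in msh1 Total against WT Total.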

How the data were processed

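Messenger RNA of 8 floral stem libraries was sequenced as paired reads of 100 bases from unstranded TruSeq v2 libraries, per the labels' protocols. The authors deposited whole-number counts per gene, on TAIR10 and with DESeq2 named, per the submitters' processing notes; the aligner and counter are not stated there. Lines that name no gene were left out (no feature 38.5 to 41.7% and not unique 12.4 to 18.9% of all counts). Counts as deposited were fitted with edgeR 4.0.16 in R 4.3.3 (filterByExpr, TMM, quasi-likelihood F test, 1 fit of 4 groups, 4 residual degrees of freedom), with Benjamini-Hochberg adjustment over 21202 genes and a threshold of 0.05. DESeq2 1.42.0 was an alternative. The length trend was a smooth with 6 degrees of freedom of log2 CPM (prior count 2) on transcript length per library. Lengths, promoters and coding sequences came from RefSeq TAIR10.1. The fit was tested on simulated data. Members and lists were chosen with earlier results of these data known. Values in every library were given for the members furthest up or down in each comparison, up to 6 a direction, and pairs were given together. Deviations of replicates with the same number correlated at −0.24 between Total and TRAP in WT and at −0.20 in msh1. Between the other groups they correlated at −0.03 to 0.08. Whether samples share plants is not stated, so pairing is unresolved.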

Additional observations from a re-analysis of the deposited data

Results flagged for a closer look

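For 10 of the 43 genes the genotype difference in TRAP was unlike that in Total, by edgeR's test of the interaction. Of all genes 15.6% passed that test. Among genes with transcripts as long as those of the 43, 15.3% were positive and 1.39% negative. The log2 differences were positive for AT4G25890 (1.48), AT3G53890 (1.27), RPL23AB (1.22), AT2G45710 (1.16), EMB1080 (0.94), RPL23AA (0.88), AT1G70600 (0.87) and RPS15 (0.85). They were negative for ATL5 (−0.94) and RP1 (−0.94). Every one of them lost its call under at least 1 other setting. With the transcript length trend removed, AT4G25890, AT3G53890, RPL23AB, ATL5 and RP1 passed, along with RPL5B.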

How the results depend on the processing

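Leaving out each library in turn gave 7 to 33 ribosomal protein genes in msh1 TRAP against msh1 Total, 2 to 14 in WT TRAP against WT Total, 21 to 33 in msh1 TRAP against WT TRAP, 0 to 3 in msh1 Total against WT Total and 3 to 23 for the interaction. Over all genes these ranges were 2218 to 7114, 167 to 2310, 5835 to 9517, 219 to 1650 and 1009 to 5575, in the same order. The medians of the 43 genes ran from 0.25 to 0.86, −0.02 to 0.08, 0.35 to 0.81, 0.22 to 0.27 and 0.10 to 0.55, again in that order. Removing the transcript length trend gave medians of 0.31 (msh1 TRAP against Total), 0.22 (WT TRAP against Total), 0.15 (msh1 TRAP against WT TRAP) and −0.059 (interaction), with 10 members called in msh1 TRAP against Total and 6 for the interaction (1615 genes over all). The coding length trend, chosen after seeing the data, gave 0.21, 0.22, 0.16 and −0.14, with 8 and 3 members and 1191 genes. With the length trend removed, 345 genes were higher and 607 lower in msh1 Total against WT Total, beside 174 and 650 as counted. The median of all genes in that comparison moved up with it, from −0.00 as counted to 0.07. Without a filter on low counts the interaction called 16 members, beside 10 in the main fit, where 15.6% of all genes passed. The share of all genes called for the interaction without the filter is not given here. Without the filter, 2011 genes passed in WT TRAP against Total and 1770 in msh1 Total against WT Total. Fitting only the groups compared called 11 members in msh1 TRAP against Total and 14 in msh1 Total against WT Total, with 3548 genes, 2708 genes and, in WT TRAP against Total, 1871 genes. The summed share was 1.38% in msh1 TRAP, 1.10% in msh1 Total, 1.31% in WT TRAP and 0.910% in WT Total. Computed per kilobase it was 1.57% in msh1 TRAP, 1.31% in msh1 Total, 1.60% in WT TRAP and 1.09% in WT Total, so that the order of the TRAP groups changed. As a plain share of counts without the 10 most abundant genes in the total it was 1.49, 1.19, 1.44 and 1.00% in the same order of groups (0.999606 before rounding in WT Total). RPL10B, at −0.01 in msh1 Total against WT Total, changed sign to 0.0057 with upper-quartile factors, 0.0016 without the filter, 0.038 with the transcript length trend removed and 0.040 with the coding length trend removed, and ran from −0.12 to 0.11 without single libraries. PGY2 in msh1 TRAP against Total ran from −0.38 to 0.16 without single libraries and was above 0 without msh1 TRAP replicate 1. The causes were not tested.

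With the replicate block, 22 members passed in msh1 TRAP against Total, 8 in WT TRAP against Total, 26 between the TRAP samples, 0 in Total and 8 for the interaction, and over all genes 4871, 742, 8285, 656 and 2600 passed. The replicate block with the length trend removed gave medians of 0.30, 0.22, 0.15 and −0.057 (msh1 TRAP against Total, WT TRAP against Total, TRAP samples, interaction), RPL10B at 0.037, 10 members in msh1 TRAP against Total and 4 for the interaction, and 658 genes in WT TRAP against Total and 1099 for the interaction. Crossed pairing, chosen after seeing the data, called 23, 11, 28, 0 and 15 members and 5945, 1265, 9105, 1110 and 3756 genes in the order of the block above. P40 shares 124 of its 1289 exon bases with AT1G72360 on the opposite strand, and unstranded reads within that stretch cannot be told apart. The mean count was 4675 for P40 and 96.9 for AT1G72360.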

Other observations

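Nuclear genes for ribosomal proteins of the plastid, the organelle ribosome of chloroplasts, were followed as a second ribosomal family. Of 29, 26 were higher in msh1 TRAP than in WT TRAP and none was lower, with a median log2 fold change of 0.94 (edgeR adjusted p under 0.05), beside 0.53 for the 43 cytosolic genes. Of all genes 20.8% were higher in this comparison, and of genes with transcripts as long as those of the 43, 34.0%. In msh1 TRAP against msh1 Total 13 rose and none fell (median 0.41), where 14.1% of all genes were higher. With the transcript length trend removed 6 rose, where 13.7% of all genes were higher. In msh1 Total against WT Total, RPL9 was the 1 gene that rose (median of the 29, 0.46), where 0.821% of all genes were higher. In WT TRAP against WT Total the median was −0.13. RPL12-A stood at 278 and 461 CPM in msh1 TRAP, against 101 and 126 CPM in WT TRAP. Both msh1 libraries were well above both WT libraries. With the transcript length trend removed, 18 of the 29 rose in msh1 TRAP against WT TRAP and the median was 0.58. Of all genes 19.0% were higher under that setting.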
